A study of Caenorhabditis elegans with 12 samples.

Results

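Peroxins are the proteins that build and maintain peroxisomes. The 10 peroxin genes described here (prx-1, prx-2, prx-3, prx-5, prx-6, prx-10, prx-12, prx-13, prx-14 and prx-19) were found by gene symbol among the 25478 genes of a whole-transcript array of the nematode Caenorhabditis elegans. Each had exactly 1 probe set among those with 1 gene symbol, and probe sets with several symbols were not searched. They were followed across 4 groups of wild-type N2 worms, with 3 arrays in each group and 12 in all: a control group and groups given 1 of 3 fatty acids, namely LNA (linoleic), GLA (gamma-linolenic) and DGLA (dihomo-gamma-linolenic). All groups were age-synchronised worms that hatched after hypochlorite treatment of their mothers and were raised at 20 °C from L1 larvae to the L4 stage, the last before adulthood, on agar plates of nematode growth medium with Escherichia coli OP50 as food, with about 2000 larvae moved to the plates. The acid plates held 1000 µM of 1 acid, and the control plates held the same amount of ethanol vehicle (1% v/v). LNA and GLA differ by a double bond, and GLA and DGLA differ in chain length. Each array therefore measured total RNA of many whole worms, in which a change in the number of cells of a type and a change in RNA per cell cannot be told apart.

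Peroxisomes break down very long and branched acyl chains and, in the worm, shorten the side chains of ascaroside pheromones. Their enzymes are made in the cytosol and imported folded. From yeast and mammalian homologues, PRX-5 is known as the receptor that binds the targeting signal at the end of most matrix proteins, PRX-13 and PRX-14 form the dock at the membrane, PRX-2, PRX-10 and PRX-12 are the RING-finger ubiquitin ligases that mark the receptor, and PRX-1 and PRX-6 are the AAA ATPases that pull the marked receptor out for another round. PRX-3 and PRX-19 act earlier, in placing proteins in the peroxisomal membrane: PRX-19 carries newly made membrane proteins and PRX-3 is its anchor.

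The values are log2 signals normalised between arrays, so a difference of 1 stands for a doubling of signal. Array medians lay between 4.47 and 4.56. All 10 peroxins had a mean above that of the median probe set (4.51). On the first principal component of all probe sets (23.1% of the variance), arrays LNA 2 (41.95) and LNA 3 (35.68) stood apart from the other 10 (-18.02 to 3.64). The peroxin differences of LNA from control, and prx-2 between DGLA and LNA, are therefore also given without them, which leaves 1 LNA array. Gene lists beside the peroxins were not refitted without these arrays. The body wall muscle markers moved with those arrays: their mean signal deviated from its 12-array mean by -0.70 on LNA 2 and -0.49 on LNA 3, against -0.02 to 0.22 on the other 10. Of the stage markers, the 5 measured adult-stage genes of 6 fixed all lay above the median probe set in worms labelled L4. In limma's test against control 0 of the 5 passed with any acid (0.058% to 0.498% of all probe sets did). Past an unadjusted p of 0.05 were 0 of these 5 genes (5.46% to 9.6% of all probe sets were). Their mean signal deviated from its 12-array mean by -0.69 to 0.60 on the control arrays, -0.79 to 0.42 with LNA, 0.03 to 0.23 with GLA and -0.08 to 0.43 with DGLA, so the control arrays spanned the range of the GLA and DGLA arrays. The median log2 difference of these 5 genes from control was -0.11 with LNA, 0.06 with GLA and 0.32 with DGLA. Among them, 2 were singled out after their values were seen. The yolk protein gene vit-5 had group means of 7.64 with control, 8.27 with LNA, 8.89 with GLA and 8.64 with DGLA. These are in the direction of most peroxins, but its differences were the largest of the 5 with each acid. The adult cuticle collagen gene col-19 had means of 8.44, 8.66, 8.41 and 8.23. The part of worm stage in the peroxin values was not tested. No pair of arrays held identical values, and nothing says how the replicates of a group were separated in culture or extraction beyond the design's term biological replicates.

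Compared with control, the signals of most peroxins were above the control mean with each acid, and highest with DGLA, but 1 gene in 1 comparison passed the test. With DGLA the RING-finger gene prx-2 rose 1.61-fold (95% interval 1.34 to 1.92, adjusted p = 0.0268). The control mean of prx-2 (5.02) was the lowest of the 10 peroxins, beside 4.51 for the median probe set. The median log2 difference over the 10 peroxins was 0.20 with LNA, 0.21 with GLA and 0.43 with DGLA, beside medians of 0.02, -0.002 and -0.005 over all 29317 probe sets. In limma's moderated test, with Benjamini-Hochberg adjustment over all probe sets and a threshold of 0.05, 0 of 10 peroxins were called with LNA (0.058% of all probe sets were), 0 of 10 with GLA (0.229% were) and 1 of 10 with DGLA (0.498% were). The 3 comparisons share the same 3 control arrays, so their values are not independent of each other.

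**Figure D1:**
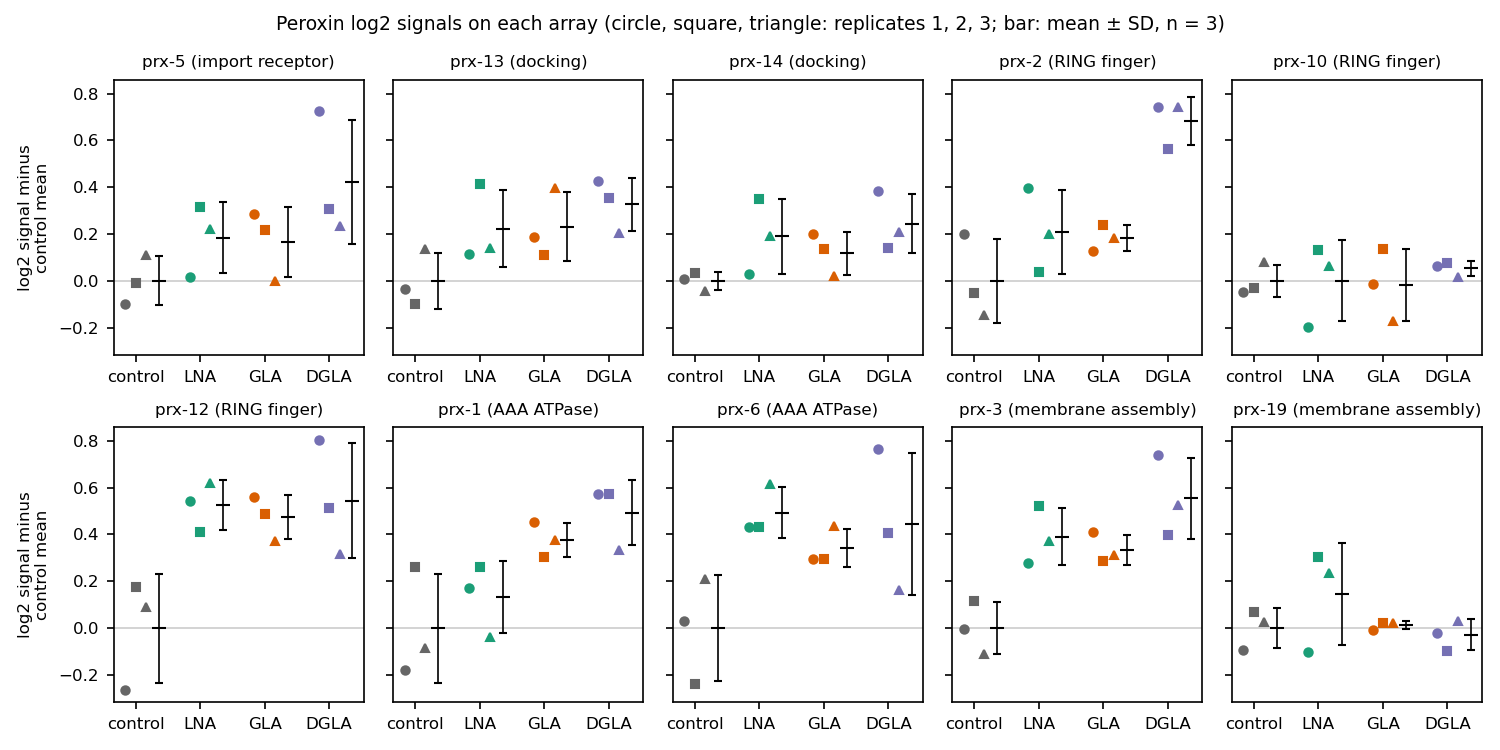
Log2 signal of each peroxin on each of the 12 arrays, as the difference from that gene's control mean (vertical axis, log2 units, shared by the 10 panels), by group. Symbols are replicates 1, 2 and 3, and the bar beside them is the group mean ± SD (n = 3). The 3 DGLA arrays of prx-2 lie above all other arrays, while prx-10 and prx-19 stay near 0 in the DGLA group.

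Without the adjustment for many tests, 3 peroxins were past a p of 0.05 with LNA, where 9.6% of all probe sets were, 4 with GLA, where 5.46% were, and 8 with DGLA, where 5.69% were. All of these were on the higher side. The difference was above 0 for 10 peroxins with LNA, 9 with GLA and 9 with DGLA, beside 55.3%, 49.4% and 48.4% of all probe sets. The 3 arrays of the acid lay above all 3 control arrays for 3 peroxins with LNA, against 8.06% of all probe sets, for 4 with GLA, against 5.56%, and for 7 with DGLA, against 5.3%. For prx-12 and prx-3 this was so with all 3 acids, as it was for 0.805% of all probe sets. Control had the lowest and DGLA the highest of the 4 group means in 7 of the 10 genes, a pattern picked after the values were seen and shared by 6.48% of all probe sets.

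The import receptor gene prx-5 (C34C6.6) had signals of 6.18, 6.26 and 6.39 on the control arrays, 6.29, 6.59 and 6.50 with LNA, 6.56, 6.49 and 6.27 with GLA, and 7.002, 6.58 and 6.51 with DGLA. The LNA and GLA arrays overlapped the control arrays, whereas the DGLA arrays lay above them, with DGLA 1 far above the other DGLA arrays. The log2 difference was 0.18 with LNA, 0.17 with GLA and 0.42 with DGLA (95% interval 0.12 to 0.73, adjusted p = 0.582), and none passed. Without DGLA 1 the difference with DGLA was 0.27.

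The docking genes were highest with DGLA as well. Signals of prx-14 (R07H5.1) were 9.71, 9.73 and 9.66 on the control arrays, 9.73, 10.05 and 9.89 with LNA, 9.90, 9.84 and 9.72 with GLA, and 10.09, 9.84 and 9.91 with DGLA. Only the DGLA arrays were clear of the control arrays, which for this gene lay close together (SD 0.0381, n = 3). Its difference with DGLA was 0.24 (95% interval 0.02 to 0.47, adjusted p = 0.81). For the other docking gene, prx-13 (F32A5.6), the control arrays read 6.31, 6.25 and 6.48, the LNA arrays 6.46, 6.76 and 6.49, the GLA arrays 6.53, 6.46 and 6.74, and the DGLA arrays 6.77, 6.70 and 6.55. Here too the DGLA arrays alone did not overlap control. The differences of 0.22 with LNA, 0.23 with GLA and 0.33 with DGLA (95% interval 0.07 to 0.58, adjusted p = 0.663) did not pass.

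The 3 RING-finger genes, whose proteins act as 1 complex in yeast and mammals, differed in which acid groups were clear of control. Differences in response between the genes were not tested. For prx-2 (ZK809.7) the control arrays read 5.22, 4.97 and 4.87, the LNA arrays 5.41, 5.06 and 5.22, the GLA arrays 5.15, 5.26 and 5.20, and the DGLA arrays 5.76, 5.58 and 5.76. All 3 DGLA arrays lay above each of the other 9 arrays. The group means were 5.02 ± 0.179 with control and 5.70 ± 0.103 with DGLA (SD, n = 3), a log2 difference of 0.68 (SE 0.118), and the differences with LNA (0.21, adjusted p = 0.581) and GLA (0.18, adjusted p = 0.991) did not pass. This call ended without control 2 (adjusted p = 0.131), control 3 (0.123), GLA 2 (0.0511), GLA 3 (0.0519), DGLA 1 (0.118), DGLA 2 (0.0548) or DGLA 3 (0.13), on the 6 arrays of the 2 groups alone (0.145) and when all 6 comparisons were adjusted together (0.0524), while the log2 difference stayed between 0.61 and 0.78. It held without LNA 2 and LNA 3 (0.0292).

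The RING-finger gene prx-12 (F08B12.2) read 5.04, 5.48 and 5.39 on the control arrays, 5.85, 5.72 and 5.93 with LNA, 5.87, 5.79 and 5.68 with GLA, and 6.11, 5.82 and 5.62 with DGLA. Every acid array lay above every control array, and the 3 acid groups overlapped one another. The difference was 0.53 with LNA (95% interval 0.21 to 0.84, adjusted p = 0.366), 0.47 with GLA (0.16 to 0.79, adjusted p = 0.596) and 0.54 with DGLA (0.23 to 0.86, adjusted p = 0.262), and none passed. The control arrays spread widely (SD 0.233, n = 3).

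The RING-finger gene prx-10 (C34E10.4) had the flattest profile of the class. Its control arrays read 6.64, 6.66 and 6.77, the LNA arrays 6.49, 6.82 and 6.75, the GLA arrays 6.67, 6.83 and 6.52, and the DGLA arrays 6.75, 6.77 and 6.71. All groups overlapped. The 95% interval of the log2 difference ran from -0.24 to 0.24 with LNA, from -0.25 to 0.22 with GLA and from -0.19 to 0.29 with DGLA, so that a difference as large as that of prx-2 with DGLA lay outside all 3 intervals. Whether prx-2 and prx-10 differ in their response was not tested.

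The AAA ATPase genes had their group means in different orders, and the difference between the orders was not tested. For prx-1 (C11H1.4) the control arrays read 5.94, 6.38 and 6.03, the LNA arrays 6.29, 6.38 and 6.08, the GLA arrays 6.57, 6.42 and 6.49, and the DGLA arrays 6.69, 6.69 and 6.45. The GLA and DGLA arrays were above both the control and the LNA arrays, which overlapped each other. The difference was 0.13 with LNA, 0.38 with GLA (adjusted p = 0.769) and 0.49 with DGLA (95% interval 0.21 to 0.78, adjusted p = 0.262).

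For prx-6 (F39G3.7) the control arrays read 5.75, 5.48 and 5.93, the LNA arrays 6.15, 6.15 and 6.34, the GLA arrays 6.01, 6.01 and 6.15, and the DGLA arrays 6.48, 6.13 and 5.88. The LNA and GLA arrays lay above control, but DGLA 3 lay below control 3. The difference was 0.49 with LNA (adjusted p = 0.446), 0.34 with GLA (adjusted p = 0.916) and 0.45 with DGLA (adjusted p = 0.621), and 0.29 with DGLA when DGLA 1 was left out. This was the only peroxin other than prx-19 whose highest group mean was not that of DGLA.

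Of the membrane assembly genes, the anchor gene prx-3 (C15H9.8) came nearest to the threshold after prx-2. It read 7.13, 7.25 and 7.02 on the control arrays, 7.41, 7.65 and 7.50 with LNA, 7.54, 7.42 and 7.44 with GLA, and 7.87, 7.53 and 7.66 with DGLA. As with prx-12, every acid array was above every control array. The differences were 0.39 with LNA (95% interval 0.15 to 0.63, adjusted p = 0.389), 0.34 with GLA (0.10 to 0.58, adjusted p = 0.702) and 0.55 with DGLA (0.31 to 0.79, adjusted p = 0.0572). The last passed after cyclic loess (adjusted p = 0.0258), quantile normalisation (0.0438), array weights (0.0441), a trended and robust spread (0.0217) or with only the probe sets above the median kept (0.0212), and did not pass with any array left out (0.0573 to 0.244).

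The carrier gene prx-19 (F54F2.8) had control arrays of 7.52, 7.68 and 7.64, LNA arrays of 7.51, 7.92 and 7.85, GLA arrays of 7.61, 7.64 and 7.64, and DGLA arrays of 7.60, 7.52 and 7.65. The values of LNA 2 and LNA 3 were above all others, and the remaining arrays overlapped. Its difference was 0.15 with LNA, 0.01 with GLA and -0.03 with DGLA (95% interval -0.27 to 0.21, adjusted p = 1.00), and without LNA 2 and LNA 3 the difference with LNA was -0.10.

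**Figure D2:**
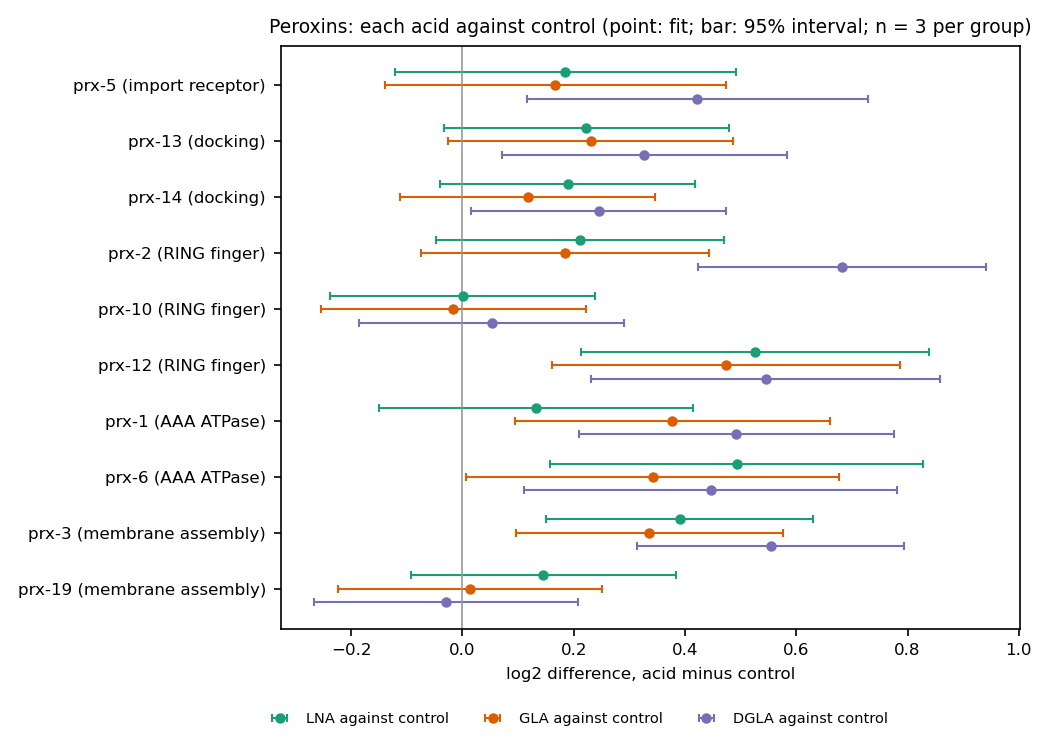
Log2 difference of each acid from control (horizontal axis, log2 units) for the 10 peroxins in order of role. Points are estimates of the fit to all 12 arrays and bars are their 95% intervals, unadjusted for the number of tests. With DGLA the intervals of 8 genes lie above 0, and those of prx-10 and prx-19 span 0.

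By role, the median log2 difference with DGLA was 0.42 for the receptor gene, 0.29 for the 2 docking genes, 0.54 for the 3 RING-finger genes, 0.47 for the 2 AAA ATPase genes and 0.26 for the 2 membrane assembly genes. The range within the RING-finger genes (0.05 to 0.68) and within the membrane assembly genes (-0.03 to 0.55) was wider than that between these medians. With LNA the class medians were 0.18, 0.21, 0.21, 0.31 and 0.27 in the same order, and with GLA 0.17, 0.17, 0.18, 0.36 and 0.17. No class was tested as such, and classes of 1 to 3 genes give no ground for ranking them.

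DGLA 1 was the highest of the 12 arrays for 7 of the 10 peroxins. The share of all probe sets highest on that array was not analysed here. On the first principal component DGLA 1 lay within the range of the other arrays (0.494), with DGLA 2 at -18.02 and DGLA 3 at -14.03. Its median probe set signal (4.47) was the lowest of the 12 arrays. Without DGLA 1 the median difference of the peroxins with DGLA was 0.28 in place of 0.43, 4 peroxins in place of 8 were past an unadjusted p of 0.05 (5.12% of all probe sets were), and no peroxin was called. Without control 2 the count was 5, against 5.22% of all probe sets. Without LNA 2 and LNA 3, the median difference with LNA was 0.14 in place of 0.20, and 2 peroxins in place of 3 were past an unadjusted p of 0.05 (8.21% of all probe sets were). The differences of prx-5 (0.02 in place of 0.18) and prx-14 (0.03 in place of 0.19) with LNA were then close to 0, and those of prx-12 (0.54) and prx-6 (0.43) were not. That of prx-13 was 0.11 in place of 0.22, whereas that of prx-2 was 0.40 in place of 0.21 (adjusted p = 0.523). The other 2 genes with a positive value were prx-3 (0.28 in place of 0.39) and prx-1 (0.17 in place of 0.13), and prx-10 was at -0.20. With LNA 1 left out in place of these arrays, 5 peroxins were past an unadjusted p of 0.05, as were 15.7% of all probe sets.

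Taken as a mean over the 10 genes, the peroxin signal deviated from its 12-array mean by -0.260, -0.189 and -0.185 on the control arrays, by -0.04, 0.11 and 0.05 with LNA, by 0.04, 0.01 and -0.02 with GLA, and by 0.31, 0.11 and 0.07 with DGLA. All 9 acid arrays were above the 3 control arrays. The intestine is a main site of peroxisomes in the worm. Of the 10 intestine markers 0 passed limma's test with any acid, and 2 were past an unadjusted p of 0.05 with LNA and 0 with GLA or DGLA. Of all probe sets, 0.058%, 0.229% and 0.498% passed with LNA, GLA and DGLA. Past the unadjusted p were 9.6%, 5.46% and 5.69%. The median difference of the intestine markers was 0.06 with LNA, 0.03 with GLA and 0.03 with DGLA. Their mean signal ranged from 9.78 to 9.82 on the control arrays, 9.83 to 9.93 with LNA, 9.78 to 9.85 with GLA and 9.78 to 9.88 with DGLA. It was thus higher on every LNA array than on any control array, and overlapped control with the other acids. The 9 measured epidermis markers of 10 fixed had a median difference of 0.14 with LNA, 0.21 with GLA and -0.02 with DGLA. Beside the same shares of all probe sets, 0 of these markers were called, and 0, 1 and 0 were past an unadjusted p of 0.05. Their mean signal ranged from 8.52 to 8.94 on the control arrays, 8.81 to 8.88 with LNA, 8.88 to 9.06 with GLA and 8.67 to 8.84 with DGLA. The part of either tissue in the peroxin values was not tested.

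**Figure D3:**
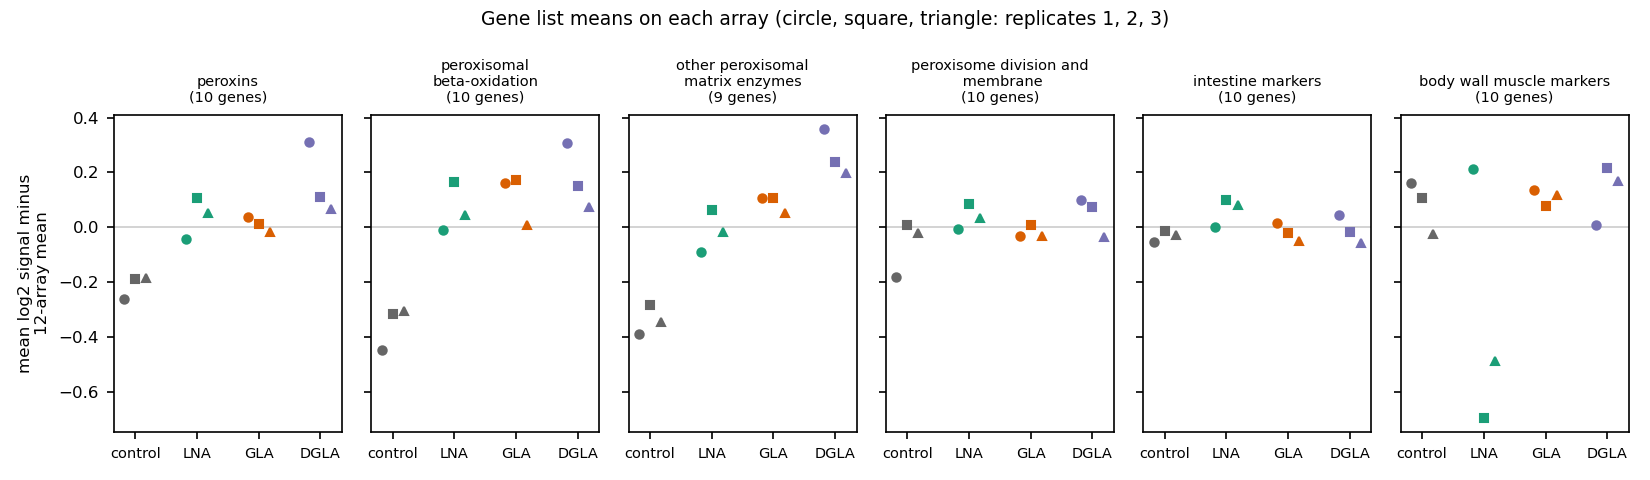
Mean log2 signal of 6 gene lists on each of the 12 arrays, as the deviation from the list's own 12-array mean (vertical axis, log2 units), by group; symbols are replicates 1, 2 and 3. The peroxins, the beta-oxidation enzymes and the other peroxisomal enzymes are lowest on the 3 control arrays, and the body wall muscle markers are lowest on LNA 2 and LNA 3.

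The acids were also compared with each other, at the same dose and stage, in 3 pairs. No peroxin passed limma's test between GLA and LNA (0.0614% of all probe sets did), between DGLA and GLA (0.075% did) or between DGLA and LNA (0.317% did), and none passed when all 6 comparisons were adjusted as 1 family. Past an unadjusted p of 0.05 were 0, 1 and 2 peroxins in these pairs, against 11%, 5.15% and 11.8% of all probe sets. The gene with the greatest difference was prx-2, at 0.50 between DGLA and GLA (95% interval 0.24 to 0.76, adjusted p = 0.442) and 0.47 between DGLA and LNA (0.21 to 0.73, adjusted p = 0.197), with no overlap of arrays in either pair. Second was prx-1, at 0.36 between DGLA and LNA (0.08 to 0.64, adjusted p = 0.333).

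Between GLA and LNA, the acids that differ by a double bond, the differences ran from -0.15 for prx-6 (95% interval -0.49 to 0.18) to 0.25 for prx-1 (-0.04 to 0.53), and every interval included 0. For DGLA against GLA, which differ in chain length, the differences other than that of prx-2 lay between -0.04 for prx-19 (-0.28 to 0.20) and 0.26 for prx-5 (-0.05 to 0.56). With intervals of this width, the acids cannot be said to act alike on these genes. The call of prx-2 between DGLA and LNA appeared when LNA 1 was left out (adjusted p = 0.0225), which leaves the 2 LNA arrays that stand apart, and without those 2 its adjusted p was 0.715.

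**Figure D4:**
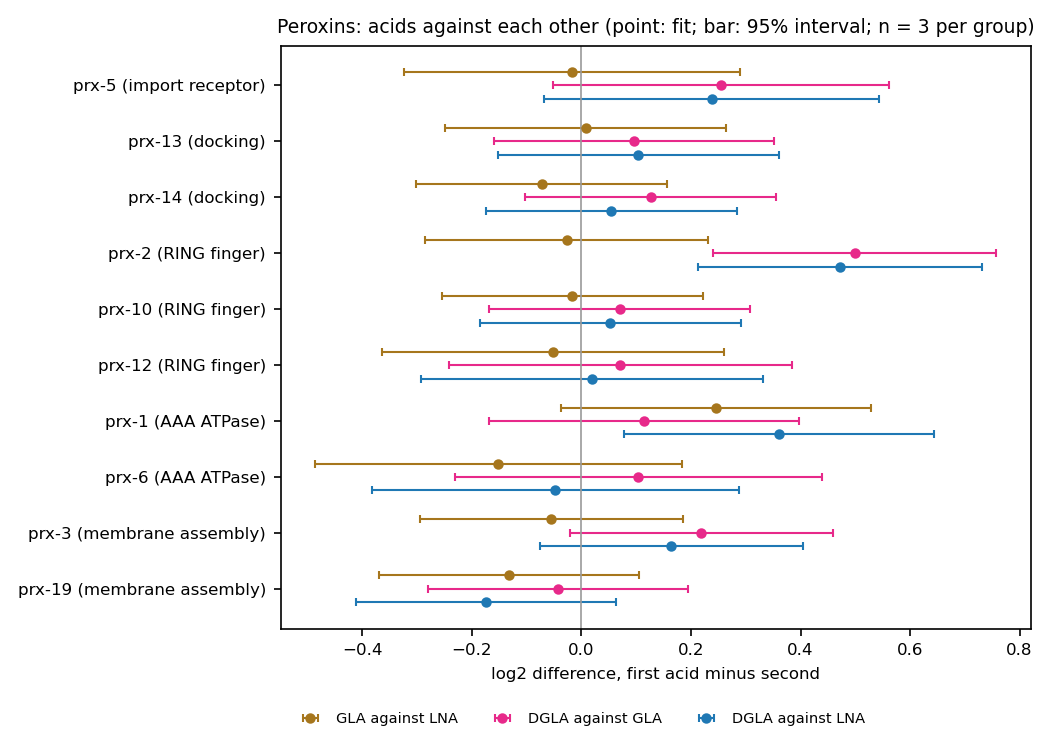
Log2 difference between acids, the first acid of each pair minus the second (horizontal axis, log2 units), for the 10 peroxins; points are estimates of the fit to all 12 arrays and bars are 95% intervals, unadjusted for the number of tests. The intervals of prx-2 for DGLA against GLA and against LNA, and of prx-1 for DGLA against LNA, lie above 0.

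Over the 4 groups at once, limma's F test called 0 of the 10 peroxins (0.467% of all probe sets were called), with prx-2 nearest (adjusted p = 0.0998), then prx-3 (0.213). At an unadjusted p under 0.05 it counted 5 of 10, against 8.7% of all probe sets. In the order of group means, control was lowest in 8 genes and DGLA highest in 8. Neighbours in that order were mostly not separable: for prx-2, control (5.02), GLA (5.20) and LNA (5.23) overlapped and DGLA (5.70) was clear of them, whereas for prx-12 and prx-3 the step lay between control and all 3 acids.

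As a description, correlations between the peroxins were taken over the 12 arrays, which share the 4 groups. Pairs of other genes were not analysed here, so the values are not shown to be particular to peroxins. Of 45 pairs of peroxins 42 had a Pearson correlation above 0, with a median of 0.54. The highest was between the docking gene prx-14 and the anchor gene prx-3 (0.89), then between prx-5 and prx-14 (0.87), and the lowest between prx-2 and prx-19 (-0.38). With each array taken as its deviation from its group mean, the median was 0.22 and 33 pairs were above 0. Against the mean of the other 9 peroxins, prx-3 (0.91), prx-5 (0.89) and prx-14 (0.88) stood highest, and prx-2 (0.47), prx-10 (0.34) and prx-19 (0.18) lowest, so the gene that passed the test was not the 1 that followed the others most closely.

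**Figure D5:**
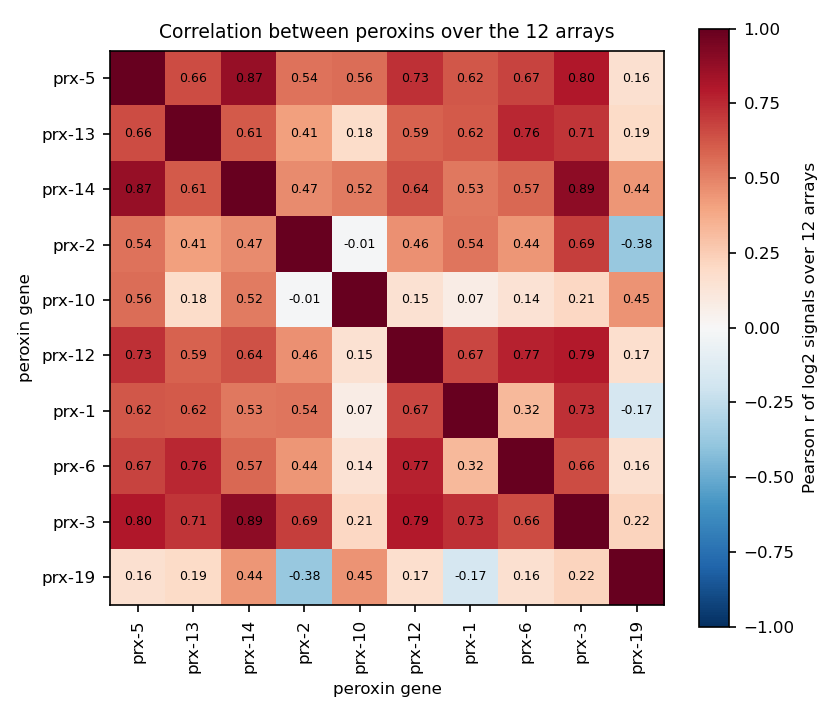
Pearson correlation of log2 signals over the 12 arrays between each pair of peroxins (both axes), on a colour scale from -1 to 1 with each value printed. The columns of prx-10 and prx-19 hold the lower values, and the pairs among prx-5, prx-14 and prx-3 hold the highest.

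Genes outside the family were ranked by the correlation of their signal with the mean of the 10 peroxins over the 12 arrays, among 12775 genes above the median probe set. The first 5 were dif-1, a mitochondrial carrier gene (0.95), gpx-1, of the glutathione peroxidases (0.94), ech-4, of the enoyl-CoA hydratases (0.94), hyl-2, a ceramide synthase (0.94), and abhd-3.1, of the alpha/beta hydrolases (0.93). Of these, dif-1 rose with DGLA, from 10.86 to 11.47 (log2 difference 0.61, adjusted p = 0.0156). The hydrolase gene abhd-3.1 rose with GLA (0.57, adjusted p = 0.0487) and with DGLA (0.82, adjusted p = 0.00203). These 5 genes were chosen for following the peroxin mean on the same 12 arrays. Their rises are therefore not separate support for the peroxin pattern, and the p-values do not account for that choice. The 3 genes closest to prx-5 alone were cab-1 (0.93), the UDP-glucuronosyltransferase ugt-62 (0.93) and the cytochrome b5 cytb-5.1 (0.91), and none of the 3 passed with any acid.

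The peroxins were set beside 3 lists of other genes, written from general knowledge of peroxisomes, whose membership was not checked against a reference. Of 10 genes of peroxisomal beta-oxidation, 1 was called higher with LNA, 5 with GLA and 5 with DGLA, and 0 were called lower. Of all probe sets, 0.058%, 0.229% and 0.498% were called in either direction. The median differences were 0.39, 0.43 and 0.57. The difference was above 0 for 10 genes with LNA, 9 with GLA and 7 with DGLA, so with GLA and DGLA not every gene was higher. All 3 acid arrays lay above all 3 control arrays for 9 genes with LNA, 5 with GLA and 6 with DGLA. Of all probe sets, 8.06%, 5.56% and 5.3% did so. The acid arrays lay below all 3 control arrays for 1 gene with GLA and 2 with DGLA, as for 1810 and 1597 of the 29317 probe sets. The acyl-CoA oxidase gene acox-1.1, for the step that opens the cycle, rose by 0.67, 1.02 and 1.15 with LNA, GLA and DGLA, and the largest difference of a peroxin, 0.68, was near the lowest of these. Correlation with the peroxin mean over the 12 arrays ran from -0.14 to 0.92 for the hydratase gene maoc-1.

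Of 9 genes listed as other peroxisomal enzymes, 2 were called higher with LNA, 2 with GLA and 5 with DGLA. Of all probe sets, 0.058%, 0.229% and 0.498% were called in either direction. The medians of these 9 genes were 0.15, 0.33 and 0.53. With DGLA the dehydrogenase/reductase gene dhrs-4 rose by 1.63 (adjusted p = 0.000402), the acyl-CoA synthetase gene acs-7, whose place in the list is uncertain and which is among the genes counted with each acid, by 0.90 (0.00178), the peroxisomal Lon protease gene lonp-2 by 0.95 (0.00464) and the peroxisomal catalase gene ctl-2 by 0.66 (0.0221). For lonp-2, the group means were 6.51 with control, 6.96 with LNA, 7.19 with GLA and 7.46 with DGLA. Of 10 measured genes of peroxisome division and membrane transport, 1 was called, with DGLA alone, the same count as for the peroxins. The medians of this list were 0.12, -0.01 and 0.03 with LNA, GLA and DGLA. The gene called was the membrane ABC transporter pmp-2 (0.68, adjusted p = 0.0378). The peroxin prx-11, whose homologues act in peroxisome elongation and which was kept in this list, was named after its values were seen and had means of 4.97 with control and 5.56 with DGLA (0.59, adjusted p = 0.476).

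The protein-coding genes on either side of each peroxin were read from the reference gene table. Of 20 such neighbours, 19 did not pass with DGLA, where 0.498% of all probe sets passed. Those 19 had differences of -0.18 to 0.25. The exception, singled out after its values were seen, was the carnitine palmitoyltransferase gene cpt-2, next to prx-14, with a difference of 0.55 (adjusted p = 0.0185) against 0.24 for prx-14 and a correlation of 0.76 with it over the 12 arrays. In 5 peroxins (prx-1, prx-2, prx-12, prx-13 and prx-14) the annotated span overlaps that of a neighbour, and whether probes lie in the shared stretch was not analysed here.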

How the data were processed

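Total RNA of 12 worm samples was measured on a whole-transcript Affymetrix array. The deposited values are log2 signals per probe set that the authors made with RMA, per the submitters' processing notes, which list Transcriptome Analysis Console beside Affymetrix Expression Console without versions. The options used were not stated in these notes. RMA draws arrays to a common distribution, so a difference is relative to the other genes. All 29317 probe sets were fitted, of which 25546 had 1 gene symbol, 646 several and 3125 none, and 25495 matched the reference table (WBcel235) by gene identifier, with 0 symbols changed. A gene was taken as its brightest 1-symbol probe set.

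Group means of all 12 arrays were fitted with limma 3.58.1 (lmFit, eBayes) in R 4.3.3, and 6 comparisons and an F test were adjusted by the Benjamini-Hochberg method over all probe sets. A call is an adjusted p under 0.05. The total degrees of freedom were 11.6 and the median standard error 0.136; the number of arrays limits the precision. The p-values set each group difference against the spread between the 3 arrays of a group, pooled over groups and moderated over all probe sets. As nothing says how the replicates were separated, the sources of that spread are not known. The fit was tested on simulated data. The peroxins, the gene lists and the exclusion of LNA 2 and LNA 3 were chosen with earlier results of these data known. All 10 peroxins are named, with at most 4 called genes of another list by smallest adjusted p, and the genes of closest correlation (5 with the peroxin mean, 3 with prx-5); other names are marked. A list by protein targeting signal was planned but not analysed here, and no coordinates are given because no genome build is stated.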

Additional observations from a re-analysis of the deposited data

How the results depend on the processing

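The log2 differences of the peroxins other than prx-10 and prx-19 kept their sign in each acid against control under every alternative. The count of 1 peroxin called with DGLA was 0 to 1 when 1 array was left out. It was 0 on the 2 groups alone (fewer arrays) and when all 6 comparisons were adjusted together. It was 2, with prx-3 added, after cyclic loess, quantile normalisation, a trended and robust spread, array weights or with only probe sets above the median; the cause was not tested. With the replicate number as a replicate block it was 1 (adjusted p = 0.0406 for prx-2) and no count for the peroxins moved. Of 18 same-numbered pairs of arrays, 4 had deviations from their group means correlated above 0.1 (-0.31 to 0.33 over the 18). Such a count cannot decide whether the numbers pair the samples. The F test, with 0 called, gave 1 with array weights, 1 with only those probe sets and 0 to 1 with an array left out, and DGLA against LNA 0 to 1 with an array left out. The median with DGLA was 0.28 to 0.54 with an array left out, lowest without DGLA 1. With LNA, prx-10 turned to -0.20 without LNA 2 and LNA 3, -0.0536 after cyclic loess and -0.0177 after quantile normalisation (-0.0654 to 0.0983 with an array left out), and prx-19 to -0.10 without LNA 2 and LNA 3. With GLA, prx-10 turned to 0.00017 after quantile normalisation and 0.0051 with array weights (-0.0938 to 0.0611 with an array left out). With an array left out, prx-19 ran from -0.0342 to 0.0473 with GLA and from -0.0765 to 0.00648 with DGLA. No array carries a detection call, so signal over background was not analysed here.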
